A study of Homo sapiens with 8 samples.

Results

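Transcripts of 10 receptor tyrosine kinase genes that have been named as drug targets in chordoma were followed over 8 whole-transcript expression arrays. The genes were EGFR, ERBB2, ERBB3, MET, PDGFRA, PDGFRB, KDR, FGFR1, IGF1R and KIT. A gene was read from probe sets that carry its symbol and no other in the platform annotation, with the brightest taken where a gene had several. Of the 10 genes, 8 had 1 such probe set each, among 22395 genes named in this way. ERBB2 and PDGFRA lie only on probe sets that carry several symbols and are not analysed here. The arrays came from MUG-Chor1 and U-CH1, established human cell lines derived from chordoma, a bone tumour thought to arise from notochord remnants. The cells were kept as monolayers on gelatin-coated plastic, with fetal bovine serum in the medium. The groups were MUG-Chor1 given TNF-α (1 array), untreated MUG-Chor1 (3 arrays), U-CH1 given TNF-α (1 array) and untreated U-CH1 (3 arrays). TNF-α, an inflammatory cytokine, was given at 10 ng/mL, 3 times a week, for 1 week. All values are RMA summaries on a log2 scale, so a difference of 1 is a doubling of signal. The single TNF array of a line has no replicate, and nothing in the labels says that controls were separate cultures, so p-values cover only the spread between these arrays, which may be technical.

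A receptor tyrosine kinase spans the cell membrane, binds a growth factor outside the cell and, once paired with another receptor, phosphorylates tyrosines on its own tail. Adapter proteins dock there and pass the signal on to the RAS-MAP kinase and PI3 kinase pathways. EGFR, ERBB2 and ERBB3 belong to the EGF receptor family, in which ERBB3 has little kinase activity of its own and signals through its partners. MET is the receptor of hepatocyte growth factor, IGF1R that of insulin-like growth factors, and FGFR1 one of the fibroblast growth factor receptors. KDR, also called VEGFR2, is the main signalling receptor for vascular endothelial growth factor and is best known from endothelial cells. PDGFRA, PDGFRB and KIT are related receptors, for platelet-derived growth factors and for stem cell factor. Inhibitors of EGFR, of the PDGF receptors and KIT, and of the VEGF receptors have been given to patients with chordoma.

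Of the 8 genes measured, 4 passed the test between the untreated lines, and the 250 bases before the annotated start of each are printed here so that the promoters of these 4 genes can be seen side by side. Sequences are from RefSeq (GRCh38.p14), run 5′ to 3′ in the direction of the gene, and show in capitals each GC box, GGGCGG on either strand. The table of promoters held 2 windows for EGFR, of which the first is shown, and 1 for each of the other genes.
KDR (chr4:55125596-55125845, minus strand): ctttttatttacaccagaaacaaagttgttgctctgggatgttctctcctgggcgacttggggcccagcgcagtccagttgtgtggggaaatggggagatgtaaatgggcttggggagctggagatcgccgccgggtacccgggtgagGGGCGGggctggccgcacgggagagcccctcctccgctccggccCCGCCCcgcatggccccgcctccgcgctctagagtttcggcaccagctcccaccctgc
IGF1R (chr15:98648289-98648538, plus strand): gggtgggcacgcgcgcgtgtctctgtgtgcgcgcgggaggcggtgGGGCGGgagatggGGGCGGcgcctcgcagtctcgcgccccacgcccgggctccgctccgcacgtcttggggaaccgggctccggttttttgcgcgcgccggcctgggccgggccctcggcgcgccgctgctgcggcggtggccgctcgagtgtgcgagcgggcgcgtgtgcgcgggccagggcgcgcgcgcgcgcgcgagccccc
PDGFRB (chr5:150155846-150156095, minus strand): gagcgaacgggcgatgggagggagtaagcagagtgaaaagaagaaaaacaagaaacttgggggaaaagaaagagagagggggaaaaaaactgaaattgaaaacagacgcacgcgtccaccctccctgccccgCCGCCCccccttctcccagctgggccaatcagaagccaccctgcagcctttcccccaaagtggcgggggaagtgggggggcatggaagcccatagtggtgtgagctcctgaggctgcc
EGFR (chr7:55018767-55019016, plus strand): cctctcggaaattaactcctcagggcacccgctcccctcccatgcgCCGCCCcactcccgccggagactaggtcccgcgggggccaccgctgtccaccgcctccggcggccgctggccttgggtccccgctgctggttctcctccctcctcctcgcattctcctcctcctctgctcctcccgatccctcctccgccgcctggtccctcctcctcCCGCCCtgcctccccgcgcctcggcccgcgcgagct

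All 4 windows hold a GC box, with 2 each in KDR, IGF1R and EGFR and 1 in PDGFRB. Of 35116 promoter windows of the same length, 42.6% hold one. The PDGFRB window also holds 1 CCAAT box (CCAAT, present in 32.0% of windows), which does not overlap the GC box. No window of the 4 holds, on either strand, the TATA box TATAAA (10.7% of windows), the AP-1 letters TGANTCA (6.57%) or the brachyury half-site TCACACCT (0.786%). G and C made up 81.2% of the IGF1R window, 73.6% of that of EGFR, 65.2% of that of KDR and 58.4% of that of PDGFRB. These matches describe letters only, and binding was not measured.

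The arrays were alike in brightness, with array medians of 2.52 to 2.63, and the median of all deposited values was 2.57. The tests covered the 16986 genes that exceeded this median on 1 array or more. All 10 chordoma and notochord markers listed, TBXT, KRT8, KRT18 and KRT19 among them, lay above it on every untreated array of both lines. MUG-Chor1 controls 1 and 2 correlated across the tested genes at r = 0.981, against 0.959 to 0.967 for the other control pairs within a line. Of the 8 receptors, 5 (EGFR, MET, IGF1R, KDR and FGFR1) were above the median on all 8 arrays, PDGFRB and KIT on 7 of the 8, and ERBB3 on none. No detection call was available, so these are comparisons with a median and not calls of expression. Levels of different genes are not set against each other, since probe sets differ in brightness.

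**Figure D1:**
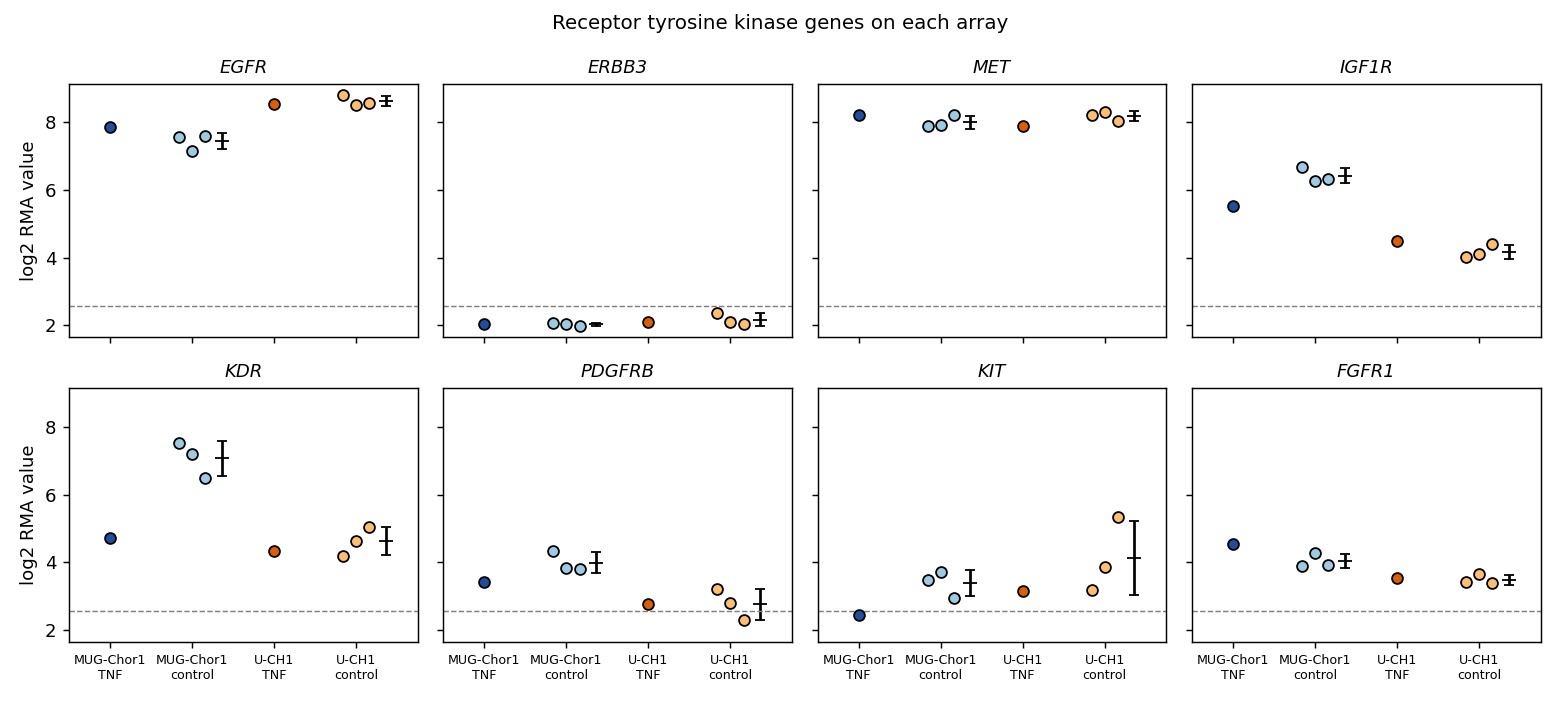
Log2 RMA value of each receptor gene (y axis) on every array, by group (x axis), with points for arrays, the mean and SD of 3 controls beside them, and a dashed line at 2.57, the median of all deposited values. KDR reads 6.51 to 7.52 in MUG-Chor1 controls and 5.04 or lower on every other array, while ERBB3 stays under the dashed line on all 8.

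How the untreated lines differ in their receptors was asked by setting the 3 MUG-Chor1 controls against the 3 U-CH1 controls. KDR, IGF1R and PDGFRB were higher in MUG-Chor1, EGFR was lower there, and FGFR1, MET and KIT did not pass (limma, two-sided, adjusted p under 0.05 over all genes tested). The 4 calls among 7 tested receptors stand beside 18.9% of all tested genes called in this comparison, 10.3% higher and 8.57% lower in MUG-Chor1. At an unadjusted p under 0.05 there were 5 receptors, against 31.7% of tested genes. Values of the 3 arrays did not overlap between the lines for 5 of the 7 receptors, against 36.3% of tested genes.

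KDR read 7.52, 7.19 and 6.51 in MUG-Chor1 controls, against 4.20, 4.63 and 5.04 in U-CH1 controls. The lowest MUG-Chor1 control, control 3, still lay above the highest U-CH1 control. The difference was 2.45 ± 0.29 (SE), a 5.46-fold higher signal in MUG-Chor1 (adjusted p = 0.000297), and KDR ranked 106 by size among the genes higher there. Of 5 tested endothelial markers, 0 passed in limma between the untreated lines (0 at an unadjusted p under 0.05). Among all tested genes these shares were 18.9% and 31.7%. So few genes cannot show whether the list differs from those shares. The part of these markers in the KDR difference was not tested. The summed log2 level of 6 endothelial markers was 15.2 to 16.5 in MUG-Chor1 controls and 16.1 to 16.8 in U-CH1 controls. Of these 6, ERG and ESAM were above the array-wide median on every array of every group and CLDN5 on those of every group but the MUG-Chor1 controls. CDH5 and EMCN were not above it on all arrays of any group, and VWF was above it on the MUG-Chor1 TNF array but not on all arrays of any other group.

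IGF1R read 6.67, 6.27 and 6.32 in MUG-Chor1 controls and 4.01, 4.10 and 4.40 in U-CH1 controls. All MUG-Chor1 controls were higher than all U-CH1 controls. The difference was 2.25 ± 0.20 (SE), or 4.75-fold higher in MUG-Chor1 (adjusted p = 4.78e-05). INSR, the insulin receptor and closest relative of IGF1R, was higher in the same direction, at 4.62 ± 0.22 in MUG-Chor1 controls and 3.14 ± 0.56 in U-CH1 controls (SD, n = 3 each; log2 difference 1.48, adjusted p = 0.00412). Of 23 tested adapters and downstream kinases, 1 was higher in MUG-Chor1, IRS2, an adapter that both receptors use, by 1.03 (adjusted p = 0.00700). Lower there were SHC1, another adapter of receptor tyrosine kinases, at -1.58, and the kinase gene MAP2K1 at -0.89 (adjusted p = 0.000206 and 0.00541). These calls, 1 higher and 2 lower of 23, stand beside 10.3% and 8.57% of all tested genes.

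PDGFRB read 4.33, 3.83 and 3.81 in MUG-Chor1 controls, against 3.21, 2.79 and 2.28 in U-CH1 controls. Every MUG-Chor1 control was higher, but the U-CH1 values lay near the array-wide median, 1 of them under it. The difference was 1.23 ± 0.26 (SE), or 2.35-fold (adjusted p = 0.00848). Fibroblasts are a cell type in which PDGFRB is described. Among 8 tested fibroblast markers, DPP4 was higher in MUG-Chor1 by 3.28 and LUM was lower, at -2.34 (adjusted p = 3.8e-05 and 0.00185). Their summed log2 level was 27.8 to 32.9 in MUG-Chor1 controls and 30.9 to 32.6 in U-CH1 controls. The part of these markers in the PDGFRB difference was not tested. Among all tested genes, 10.3% were called higher and 8.57% lower in MUG-Chor1. Of the PDGF ligand genes, PDGFA was higher in MUG-Chor1 by 0.80 (adjusted p = 0.0101).

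EGFR was the one receptor lower in MUG-Chor1 that passed. It read 7.56, 7.17 and 7.61 in MUG-Chor1 controls and 8.81, 8.51 and 8.57 in U-CH1 controls, with no overlap. The difference was -1.19 ± 0.20 (SE), a 2.27-fold lower signal in MUG-Chor1 (adjusted p = 0.00245). Of 7 tested EGF family ligands, 2 were higher and 2 lower in MUG-Chor1, beside 10.3% and 8.57% of all tested genes. TGFA, which encodes the EGFR ligand TGF-α, read 5.49, 5.44 and 5.93 in MUG-Chor1 controls, against 7.52, 7.11 and 8.01 in U-CH1 controls (log2 difference -1.93, adjusted p = 0.000532). NRG4, a ligand of ERBB4, was lower in MUG-Chor1 (log2 difference -1.48), while EGF was higher by 1.36 and betacellulin, BTC, by 0.99 (adjusted p = 0.00126, 0.00332 and 0.00654, in that order).

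FGFR1, MET and KIT did not pass between the lines. FGFR1 read 3.88, 4.27 and 3.93 in MUG-Chor1 controls and 3.40, 3.66 and 3.38 in U-CH1 controls, so the groups did not overlap, and the difference of 0.55 had an interval of 0.11 to 0.99 (95%) and an adjusted p of 0.0803. MET read 7.88, 7.91 and 8.23 in MUG-Chor1 controls, against 8.22, 8.32 and 8.04 in U-CH1 controls. The groups overlapped, and the interval of the difference, -0.61 to 0.24, leaves room for less than a doubling either way. KIT read 3.48, 3.70 and 2.95 in MUG-Chor1 controls and 3.19, 3.87 and 5.34 in U-CH1 controls. U-CH1 control 3 was the highest of the 6, and the difference, -0.75 (adjusted p = 0.292), was -0.15 without it. ERBB3 read 2.08, 2.03 and 1.99 in MUG-Chor1 controls, against 2.38, 2.10 and 2.04 in U-CH1 controls, all under the median used as filter, and was not tested.

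**Figure D2:**
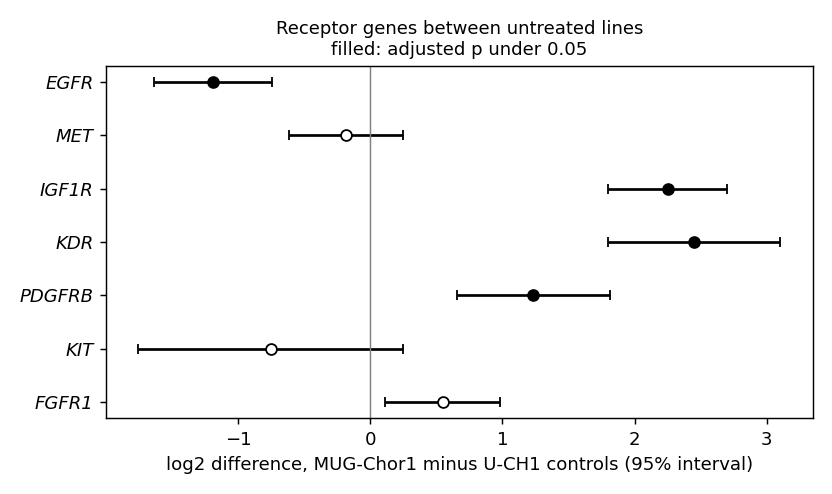
Log2 difference of MUG-Chor1 minus U-CH1 controls (x axis) with its 95% interval for the 7 tested receptors (y axis), filled where adjusted p was under 0.05. KDR at 2.45, IGF1R at 2.25 and PDGFRB at 1.23 lie right of 0 and EGFR at -1.19 lies left of it.

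What TNF did to the receptors was asked in each line against its own controls, with the spread taken from the 6 controls. In MUG-Chor1, KDR fell and the other 6 tested receptors did not pass. In U-CH1, 0 of 7 passed in limma and 0 had an unadjusted p under 0.05. The background was 2.88% of all tested genes called in MUG-Chor1 (1.47% upwards, 1.41% downwards) and 1.27% in U-CH1 (0.913% upwards, 0.359% downwards). At an unadjusted p under 0.05 MUG-Chor1 had 2 receptors, KDR and IGF1R, against 12.6% of tested genes, and the U-CH1 share of tested genes was 10.8%. For 6 of the 7 receptors the MUG-Chor1 TNF array lay outside the range of its controls, 4 below and 2 above, as it did for 59.2% of tested genes (23.9% below, 35.3% above). For 3 of the 7 the U-CH1 TNF array lay outside, 2 below and 1 above, against 54.3% (23.4% below, 30.8% above). The median change of the 7 was -0.56 in MUG-Chor1, where that of all tested genes was 0.06, and -0.07 in U-CH1, where it was 0.04.

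KDR read 4.71 on the MUG-Chor1 TNF array, against 7.52, 7.19 and 6.51 in MUG-Chor1 controls. In U-CH1 it was 4.34 with TNF, against 4.20, 4.63 and 5.04 in U-CH1 controls. The treated MUG-Chor1 value thus fell within the range of untreated U-CH1, and the treated U-CH1 value within its own controls. The fall in MUG-Chor1 was -2.37 ± 0.42 (SE), or 5.15-fold (adjusted p = 0.0121), at rank 70 by size among the genes lower there. It was -2.65 without MUG-Chor1 control 3, the lowest control, and -2.14 without control 1, and its adjusted p was 0.00234 to 0.0383 with any control left out. In U-CH1 the change was -0.28 with an interval of -1.20 to 0.64 (adjusted p = 0.906). The difference between the 2 TNF effects was -2.09 (interval -3.39 to -0.78) and did not pass over all genes (adjusted p = 0.241, unadjusted p = 0.00500). Across both lines KDR stood at -1.32 (adjusted p = 0.147). With the TNF array of 1 line left out, that fit returns the effect in the other line, -2.37 or -0.28, and adds no further test.

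Other marker groups moved on the same MUG-Chor1 TNF array as KDR, where 1.41% of all tested genes were called lower and 1.47% higher. Of 10 chordoma and notochord markers, 8 fell there, most of all ACAN at -4.09, KRT19 at -3.08, CD24 at -2.99 and COL2A1 at -2.82 (adjusted p of 0.000153 to 0.00610). Their summed log2 level was 47.5, against 69.5 to 73.2 in MUG-Chor1 controls. The call of SOX6, 1 of the 8, ended without MUG-Chor1 control 1 or any of the 3 U-CH1 controls (adjusted p of 0.0615 to 0.0780). Over all 14 alternatives the adjusted p of SOX6 was under 0.05 in 8 and reached 0.136. Of 8 tested fibroblast markers, 4 rose, FAP by 3.74, LUM by 3.65, DPP4 by 1.90 and DCN by 1.60, with a summed level of 40.9 against 27.8 to 32.9. FAP was above the median on the MUG-Chor1 TNF array only (5.71, against 1.63 to 2.29 elsewhere). It was thus tested, and counted among the 8, through the array where it is high. DCN was under the median in MUG-Chor1 controls, at 1.46 to 1.58. The DPP4 call ended without MUG-Chor1 control 1 or any of the 3 U-CH1 controls (adjusted p of 0.0553 to 0.0657), and the DCN call without U-CH1 control 1, MUG-Chor1 control 1 or MUG-Chor1 control 2 (0.0627 to 0.106). Over all 14 alternatives the adjusted p of DPP4 was under 0.05 in 8 and reached 0.105. In U-CH1 no marker of either list passed (4 of 10 and 0 of 8 at an unadjusted p under 0.05), with chordoma sums of 65.8 on the TNF array and 69.8 to 74.3 in controls, and fibroblast sums of 33.4 and 30.9 to 32.6. Across both lines 4 of the 10 chordoma markers were called lower, beside 0.93% of all tested genes. They were ACAN (-2.43), KRT19 (-2.05), SOX5 (-1.69) and TBXT (-1.30), with adjusted p of 0.0147 to 0.0482. At an unadjusted p under 0.05 there were 9 of 10, against 15.3%. DPP4 was called higher (1.39, adjusted p = 0.0477). Of these calls, only that of KRT19 held with any single control left out. Of 3 tested leukocyte markers, CD68 and ITGAM rose across both lines, by 0.84 and 0.83 (adjusted p = 0.0485 and 0.0448), and CD14 did not pass. Among all tested genes, 1.55% were called higher across both lines. The CD68 call ended with any single array other than U-CH1 control 3 left out (adjusted p of 0.0640 to 0.383), and the ITGAM call with any single one other than MUG-Chor1 control 3 left out (0.0614 to 0.298). CD14 and ITGAM were above the median on both TNF arrays and not on all controls, while PTPRC, CD3E and CSF3R were not above it on all arrays of any group. The 6 endothelial markers summed to 15.7 with TNF in MUG-Chor1, against 15.2 to 16.5 in its controls. There 0 of 5 tested passed and 0 had an unadjusted p under 0.05, against 2.88% and 12.6% of all tested genes. The difference of the TNF effects was called for ACAN (-3.31), CD24 (-2.47), KRT19 (-2.05) and FAP (3.95), beside 0.53% of all tested genes. Of these calls, only that of FAP held with any single control left out. The part of all these marker shifts in the KDR result was not tested. In bulk RNA, fewer cells with a transcript and less of it per cell cannot be told apart.

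**Figure D3:**
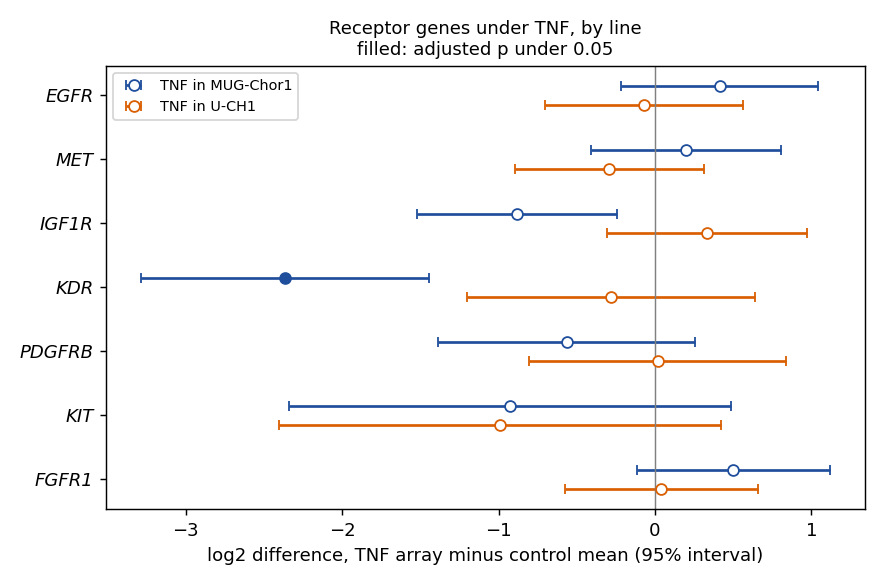
Log2 difference of the TNF array minus the control mean (x axis) with its 95% interval for the 7 tested receptors (y axis), MUG-Chor1 above U-CH1 in each pair, filled where adjusted p was under 0.05. KDR in MUG-Chor1, at -2.37, is the only filled point, and the U-CH1 points for EGFR, FGFR1 and PDGFRB lie within 0.1 of 0.

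The VEGF system around KDR was read from the ligand, co-receptor and receptor lists. FLT1, the VEGFR1 gene, fell in MUG-Chor1, to 2.92 on the TNF array against 5.07, 4.77 and 4.80 in controls (log2 -1.96 ± 0.33, SE; adjusted p = 0.00980). On the U-CH1 TNF array it read 4.79, against 5.10, 4.90 and 5.69 in controls. Of 37 other tested receptor tyrosine kinase genes, FLT1 was the 1 called in MUG-Chor1 under TNF, a share near the 2.88% of all tested genes. NRP1, a neuropilin that binds VEGF beside KDR, was at 4.09 with TNF in MUG-Chor1, against 6.18, 5.65 and 6.97 in controls. Its fall (log2 -2.18, adjusted p = 0.0233) lost its call without MUG-Chor1 control 1 (adjusted p = 0.0609) and with MUG-Chor1 arrays alone (adjusted p = 0.0960). NRP2, the partner of VEGFR3 in lymphatic endothelium, rose to 5.93 on the MUG-Chor1 TNF array, against 4.51, 4.20 and 4.46 in MUG-Chor1 controls (log2 1.54, adjusted p = 0.00979). In U-CH1 it was 5.65 with TNF and 5.81 to 5.88 in controls. Without TNF it was lower in MUG-Chor1 than in U-CH1 (log2 difference -1.47, adjusted p = 0.000385).

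Among the ligands, VEGFA was lower in untreated MUG-Chor1, at 4.22 ± 0.12 against 5.29 ± 0.22 in untreated U-CH1, and VEGFB was higher, at 5.93 ± 0.29 against 4.92 ± 0.19 (SD, n = 3 each; adjusted p = 0.00369 and 0.00797). Neither passed under TNF in either line. With TNF, VEGFA was at 5.23 in MUG-Chor1, above its 3 controls at 4.12 to 4.36, and 4.76 on the U-CH1 TNF array, below its 3 controls at 5.05 to 5.48 (difference of the TNF effects 1.53, adjusted p = 0.176). VEGFC, a ligand of VEGFR3 that can also bind KDR, read 6.34 and 6.94 on the MUG-Chor1 and U-CH1 TNF arrays, against 4.11 to 5.80 and 5.38 to 6.20 in their controls. Its change across both lines was 1.19 (adjusted p = 0.153).

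**Figure D4:**
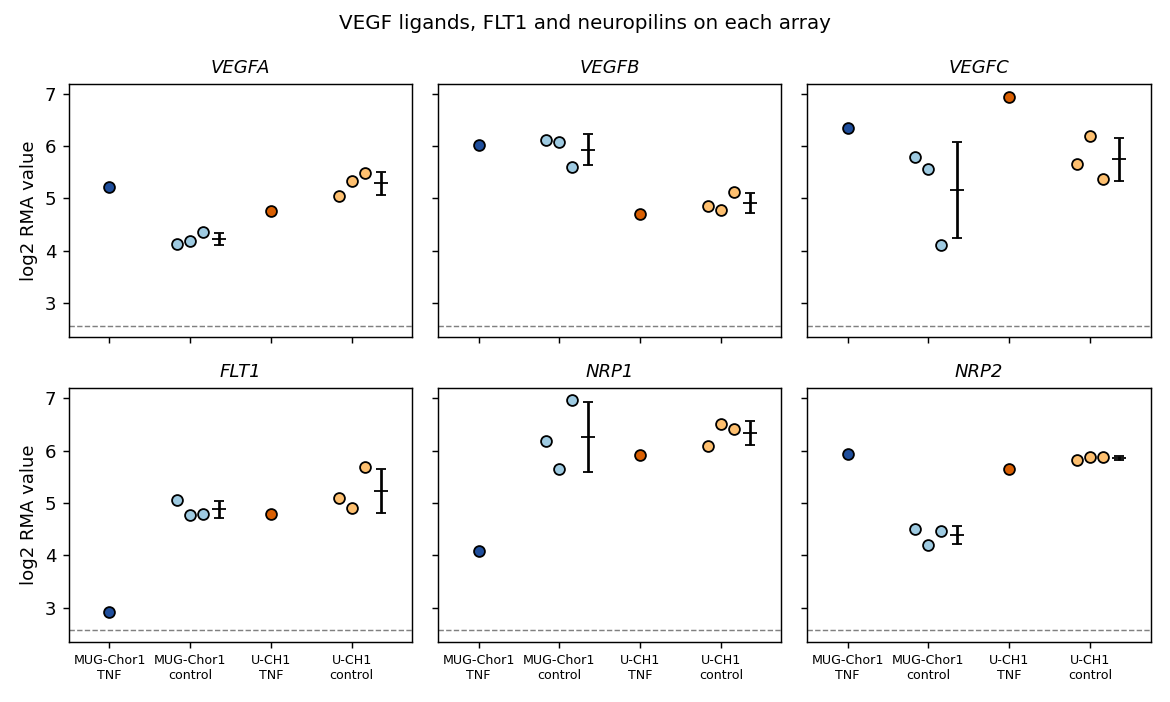
Log2 RMA value (y axis) of 3 VEGF ligand genes, FLT1 and 2 neuropilin genes on every array, by group (x axis), with points for arrays and the mean and SD of 3 controls beside them. FLT1 at 2.92 and NRP1 at 4.09 are lowest on the MUG-Chor1 TNF array, where NRP2 at 5.93 lies above its controls.

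With TNF, IGF1R was at 5.54 in MUG-Chor1, against 6.67, 6.27 and 6.32 in MUG-Chor1 controls. In U-CH1 it was at 4.51, against 4.01, 4.10 and 4.40 in U-CH1 controls. It was the 1 receptor of 7 to lie below all controls in one line and above all in the other, a pattern held by 9.63% of tested genes. Neither change passed: -0.88 in MUG-Chor1 (interval -1.52 to -0.24, adjusted p = 0.182) and 0.33 in U-CH1 (interval -0.30 to 0.97, adjusted p = 0.790). The difference of the 2 effects, -1.21, did not pass either (adjusted p = 0.387, unadjusted p = 0.0131). Of 13 tested co-receptors and IGF binding proteins, 1 was called higher and 3 lower in MUG-Chor1, beside 1.47% and 1.41% of all tested genes. In U-CH1, 1 was called higher and 0 lower, beside 0.913% and 0.359%. Across both lines 1 was called higher and 1 lower, beside 1.55% and 0.93%. PLXNB1 was 1 of the 3 lower in MUG-Chor1, at -1.37, a call that ended without MUG-Chor1 control 1 or 2. IGF binding proteins hold IGF ligands away from the receptor or carry them to it. Of their genes, IGFBP2 and IGFBP3 passed under TNF, and IGFBP1, IGFBP4, IGFBP5, IGFBP6 and IGFBP7 did not. IGFBP2 fell in MUG-Chor1, to 6.46 on the TNF array against 8.89, 8.93 and 8.26 in controls (log2 -2.23, adjusted p = 0.00355). In U-CH1, IGFBP2 was at 8.30 with TNF, against 9.06 ± 0.09 in controls (SD, n = 3). Across both lines IGFBP2 was called lower by -1.49 (adjusted p = 0.0336). That call ended without any of the 3 U-CH1 controls, or without MUG-Chor1 control 1 or 2 (adjusted p of 0.0553 to 0.0744). IGFBP3 rose across both lines by 1.64 (adjusted p = 0.0141). It read 5.72 on the MUG-Chor1 TNF array against 4.28 to 4.64 in controls, and 5.85 on that of U-CH1 against 3.32 to 4.41. By line the IGFBP3 change was 1.31 in MUG-Chor1 (adjusted p = 0.123) and 1.96 in U-CH1 (adjusted p = 0.0378). The U-CH1 call ended without U-CH1 control 1 or 2 or MUG-Chor1 control 1 (adjusted p of 0.0648 to 0.0981). IGF1, a ligand, was at 2.39 or lower on every array.

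With TNF, EGFR was at 7.86 in MUG-Chor1, above its controls at 7.56, 7.17 and 7.61 in MUG-Chor1 controls. On the U-CH1 TNF array it read 8.56, within the controls at 8.81, 8.51 and 8.57. The changes were 0.41 (interval -0.22 to 1.05) in MUG-Chor1 and -0.07 (interval -0.70 to 0.56) in U-CH1, with adjusted p of 0.660 and 0.975. EGF itself fell in MUG-Chor1, to 4.56 on the TNF array against 6.89, 6.58 and 6.94 in controls (log2 -2.24, adjusted p = 0.00565). In U-CH1 it was 5.55 with TNF and 5.16 to 5.95 in controls. LRIG3, of a family of membrane proteins that bind receptor tyrosine kinases, fell in MUG-Chor1 (log2 -1.78, adjusted p = 0.00813). ERBB3 read 2.03 and 2.08 on the MUG-Chor1 and U-CH1 TNF arrays, against 1.99 to 2.08 and 2.04 to 2.38 in their controls, so it was under the median with and without TNF.

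With TNF, MET was at 8.21 in MUG-Chor1, against 7.88 to 8.23 in controls. In U-CH1 it was at 7.90, against 8.04 to 8.32 in controls. Over all 8 arrays MET spanned 7.88 to 8.32, and its change across both lines was -0.05 with an interval of -0.48 to 0.39 (adjusted p = 0.941). HGF, its ligand, read 1.60 or lower on every array, below the median. FGFR1 read 4.53 on the MUG-Chor1 TNF array, above its controls at 3.88 to 4.27, and 3.52 on the U-CH1 TNF array, within its controls at 3.38 to 3.66. The changes were 0.50 (interval -0.12 to 1.12, adjusted p = 0.539) and 0.04 (interval -0.58 to 0.66, adjusted p = 0.986).

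With TNF, PDGFRB was at 3.43 in MUG-Chor1, below its controls at 3.81 to 4.33 (log2 -0.56, adjusted p = 0.642), and 2.78 on that of U-CH1, within 2.28 to 3.21. KIT was the 1 receptor of 7 whose TNF array lay below all controls in both lines, a pattern held by 8.85% of tested genes. In MUG-Chor1 it was 2.45 with TNF, under the median, against 2.95 to 3.70 in controls, and in U-CH1 it was 3.14, against 3.19 to 5.34. The change across both lines was -0.96 (interval -1.93 to 0.01, adjusted p = 0.331). In U-CH1 alone it was -0.99, and -0.39 without U-CH1 control 3. KITLG, which encodes the KIT ligand stem cell factor, rose in MUG-Chor1, to 6.38 on the TNF array against 4.61, 4.48 and 4.38 in controls (log2 1.89, adjusted p = 0.0496). That call ended without U-CH1 control 3, without any of the 3 MUG-Chor1 controls (adjusted p of 0.0602 to 0.108) and with no filter on low values. Over all 14 alternatives the adjusted p of KITLG was under 0.05 in 7. The mast cell markers CPA3, HDC and FCER1A, of a cell type known for KIT, were not above the median on all arrays of any group.

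Across both lines 0 of the 7 tested receptors passed in limma, and 2.48% of all tested genes were called (1.55% higher, 0.93% lower). KDR alone had an unadjusted p under 0.05, as 15.3% of tested genes did. For the difference of the TNF effects 0 of 7 passed, and 0.53% of all tested genes were called. KDR and IGF1R had an unadjusted p under 0.05, as 7.36% of tested genes did. The gap between the lines, MUG-Chor1 minus U-CH1, was 0.36 on the TNF arrays against 2.45 in controls for KDR. It was 1.03 against 2.25 for IGF1R, 0.65 against 1.23 for PDGFRB and -0.70 against -1.19 for EGFR. The gap was thus smaller between the TNF arrays for all 4 receptors called between the untreated lines, as it was for 66.5% of the 3209 genes so called. The TNF effects and the gap between untreated lines share the same controls, so they are not independent of each other.

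The other lists of the pathway are given beside the 2.88% of all tested genes called in MUG-Chor1, 1.27% in U-CH1 and 2.48% across both lines. Of 24 tested receptor inhibitors and feedback genes, CBLB rose and LRIG3 fell in MUG-Chor1, and the CBLB call (1.57, adjusted p = 0.0253) ended without MUG-Chor1 control 1 (0.0695). Over all 14 alternatives the adjusted p of CBLB was under 0.05 in 12. Across both lines PTPN2 was called higher (0.85) and SOCS3 (-1.47) and LRIG3 (-1.17) lower, with adjusted p of 0.0448 to 0.0491. None of those 3 calls held without U-CH1 control 1, 2 or 3, MUG-Chor1 control 1 or the MUG-Chor1 TNF array (adjusted p of 0.0558 to 0.548). In U-CH1 0 of the list passed (7 at an unadjusted p under 0.05, against 10.8% of all tested genes). Of 23 tested adapters and downstream kinases, PIK3R1, a regulatory subunit of PI3 kinase, fell in MUG-Chor1 (log2 -1.33, adjusted p = 0.0274). That call ended without MUG-Chor1 control 1 or 2 (adjusted p = 0.0947 and 0.0778) and with MUG-Chor1 arrays alone (0.0602). Of the same list 0 passed in U-CH1 (2 at an unadjusted p under 0.05, against the same 10.8%). Among 9 genes of ligand and receptor shedding, RHBDF2 rose across both lines by 1.44 and ADAM17, the protease that releases TNF and several EGFR ligands, by 0.85 (adjusted p = 0.0186 and 0.0337). The ADAM17 call ended without U-CH1 control 1, MUG-Chor1 control 1 or MUG-Chor1 control 2 (adjusted p = 0.0619, 0.0760 and 0.0774), and neither gene passed on the TNF array of 1 line alone (adjusted p of 0.0829 to 0.232). ADAM12, another such protease, rose in MUG-Chor1, by 2.80 (adjusted p = 0.00176). Between the untreated lines, where 10.3% of all tested genes were higher and 8.57% lower in MUG-Chor1, the feedback list of 24 held 6 higher and 5 lower. The 4 largest were DUSP6, a phosphatase of ERK, at -2.93, PTPRK, a receptor tyrosine phosphatase, at -1.76, LRIG1 at 1.497 and the EGFR inhibitor ERRFI1 at 1.35 (adjusted p of 0.00169 to 0.00182). Among 37 other receptor tyrosine kinase genes, 5 were higher and 6 lower, led by AXL at 1.85, EPHA4 at -1.65, ROR1 at -1.57 and INSR at 1.48 (adjusted p of 0.000572 to 0.00456). Of 13 co-receptors and IGF binding proteins, PLXNB1 was higher at 0.99 and FGFBP1 and NRP2 lower, FGFBP1 at -1.99 (adjusted p = 0.00633 and 0.000256 for PLXNB1 and FGFBP1). Of 9 shedding genes, TIMP3, an inhibitor of metalloproteases, was higher at 2.62 and RHBDF1 lower at -1.31 (adjusted p = 5.53e-05 and 0.00139).

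The genes whose centred values lay nearest to those of a called receptor over the 8 arrays were sought for EGFR, IGF1R and KDR, which were above the median on every array. KCNT2, ZBTB7C and SLITRK6 were nearest to KDR, at root mean square differences of 0.22, 0.26 and 0.27 (log2), where KDR itself varied by 1.25 around its mean. SNORA47, CDH2 and PHLPP1 were nearest to IGF1R, at 0.18, 0.19 and 0.21 of a variation of 1.03. PITRM1, CDC42BPB and CDC42SE1 were nearest to EGFR, at 0.11, 0.12 and 0.12 of 0.57. The arrays share 2 lines, so any gene with a like gap between the lines comes near.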

How the data were processed

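RNA of 8 arrays was processed with RMA and Transcriptome Analysis Console, per the submitters' processing notes, which give no versions. The deposited values are taken as log2 intensity from the use of RMA and from their range of 0.0648 to 12.7; no log base or genome build is given in the sources used here. RMA usually equalises arrays, which would hide a shift of all genes together. Of 53617 probe sets, 23871 carried 1 symbol in the platform annotation, 1842 several, and 27904 had no symbol there. Symbols of 22569 were matched by Entrez identifier to RefSeq and 90 updated. Values were used as deposited.

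Tests were run in R 4.3.3 with limma 3.58.1, by lmFit followed by eBayes. They were two-sided, p-values were adjusted by Benjamini and Hochberg's method over 16986 genes, and the threshold was 0.05. A model of 4 group means gave the control lines, TNF in each line and the difference of the TNF effects (4 residual degrees of freedom); the single TNF array is assumed to vary like the controls. An additive model of line and TNF gave TNF across both lines (5 residual degrees of freedom). Intervals are 95% and moderated. The scripts were tested on simulated data.

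By rule all receptors were named and, from each list, up to 4 called genes per comparison by size, or the gene with the smallest p where none passed. The text names some of the genes the rule allows and leaves others out, a choice made after their values were seen, as was that of the ligand, co-receptor and marker values given beside a receptor without a call. The receptors and the gene lists were chosen with earlier results of these data known. Array dates and scanner files were not used here, and batch and TNF cannot be told apart. The number of arrays limits the precision.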

Additional observations from a re-analysis of the deposited data

How the results depend on the processing

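The calls of KDR, IGF1R, PDGFRB and EGFR between the untreated lines held under all 15 alternatives tried, and 4 receptors were called under each. For every comparison, 1 alternative is a threshold of 0.01 on the main fit, with the adjusted p of that fit unchanged. Counts of alternatives with an adjusted p under 0.05 include it, so there it repeats the main fit. The KDR fall in MUG-Chor1 kept an adjusted p under 0.05 under all 14 (highest 0.0472), though at a threshold of 0.01 the receptors called there were 0. Without 1 array the receptors called across both lines were 0 to 1, the 1 being KDR without the U-CH1 TNF array. That fit repeats the TNF effect in MUG-Chor1 and is no separate check. At that stricter threshold the genes called numbered 229 for TNF in MUG-Chor1 and 62 for TNF in U-CH1, with 99 across both lines, 14 for the difference and 1608 between the control lines. With MUG-Chor1 arrays only, 296 genes were called in MUG-Chor1.

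With 1 array left out in turn, the genes called were 199 to 489 across both lines (422 with all arrays), 284 to 664 in MUG-Chor1 (489), 104 to 329 in U-CH1 (216), 38 to 152 for the difference (90) and 2123 to 3090 between the control lines (3209). MUG-Chor1 control 1 left out gave 199, 284, 123, 42 and 2123 genes, in that order, while without MUG-Chor1 control 3 they were 329 in U-CH1 and 152 for the difference. U-CH1 control 1 left out gave 240 across both lines, 122 in U-CH1 and 39 for the difference. U-CH1 control 2 left out gave 104 in U-CH1 and 40 for the difference, U-CH1 control 3 gave 38 for the difference, and MUG-Chor1 control 2 gave 251 across both lines and 48 for the difference. Without the MUG-Chor1 TNF array 216 genes were called across both lines, a fit that repeats TNF in U-CH1.

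Signs turned in 9 fits of receptors that had no call, all with 1 array left out. Across both lines the ranges were -0.29 to 0.20 for MET, -0.0716 to 0.41 for EGFR, -0.56 to 0.0183 for PDGFRB and -0.88 to 0.33 for IGF1R. In U-CH1 they were -0.13 to 0.0166 for EGFR, -0.22 to 0.24 for PDGFRB and -0.0095 to 0.13 for FGFR1, and for the difference -0.54 to 0.54 for KIT. The cause was not tested.

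Deviations of same-numbered controls of the lines correlated at 0.04, -0.06 and 0.16, against -0.15 to 0.14 for controls of different number. So few pairs cannot settle whether the control numbers pair the arrays. With the number as a replicate block over the 6 controls, 3248 genes and the same 4 receptors were called. Each receptor measured has 1 probe set, so averaging probe sets left its values as they were.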
